A study of Homo sapiens with 6 samples.

Results

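The genes described here are 10 transcriptional targets of Wnt/beta-catenin signalling that are known from liver and liver tumours, namely AXIN2, LGR5, TCF7, LEF1, NKD1, ZNRF3, RNF43, GLUL, TBX3 and DKK1. They were taken by symbol from a table of 29908 genes, and all 10 were present. RNA sequencing was carried out on Hep3B, an established human hepatocellular carcinoma cell line, with 3 libraries of control cells (Hep3B-Con) and 3 libraries of cells with knockdown of DAGLA (Hep3B-KD). DAGLA encodes diacylglycerol lipase alpha, which makes the endocannabinoid 2-arachidonoylglycerol. Both groups were transduced with lentivirus and selected with puromycin. The Hep3B-KD cells carried a short hairpin RNA against DAGLA, of which a single sequence is listed. The construct of the Hep3B-Con cells is labelled shControl in the sample titles and described as an empty vector in the series design. The comparison asks how the transcriptome of Hep3B cells differs when DAGLA is depleted.

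In the canonical Wnt pathway, a Wnt ligand bound to a Frizzled receptor and its LRP coreceptor stops the destruction complex (APC, AXIN, GSK3 and casein kinase) from degrading beta-catenin, which then binds TCF/LEF factors on DNA and activates target genes. Many of these targets feed back on the pathway. DKK1, AXIN2, NKD1, ZNRF3 and RNF43 restrain it at the ligand, receptor or cytoplasmic level, whereas LGR5, a receptor for R-spondins, raises the amount of Wnt receptor at the cell surface. In the liver, the pathway is active in hepatocytes around the central vein, where GLUL, the glutamine synthetase gene, is a classical target.

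Reads assigned to genes, as recovered from the FPKM values, numbered 16644962 to 17572714 per library in Hep3B-Con and 15861039 to 16593115 in Hep3B-KD. Levels are FPKM, that is, read numbers scaled to exon length and library size. The length is that of all annotated exons of a gene together, for example 17425 bases in NKD1, 10063 in TCF7 and 2206 in DKK1. Annotated exons that the cells do not use lower the level of a gene. Orders and shares between genes are therefore approximate. Changes are log2 fold changes of Hep3B-KD against Hep3B-Con on the log2(FPKM + 0.1) scale, on which changes of weakly expressed genes appear smaller than they are. They were tested with limma over the 14147 genes whose mean reached 0.5 FPKM. DAGLA itself had 9.42, 9.40 and 9.02 FPKM in the 3 Hep3B-Con libraries and 4.62, 4.46 and 4.78 FPKM in the 3 Hep3B-KD libraries, a log2 fold change of -0.99 (SE 0.0442, adjusted p = 4.90e-06, limma). The hepatocyte markers ALB, AFP, APOA1, APOB, TTR, SERPINA1, HNF4A and TF were all expressed, and 7 of these 8 genes were higher in Hep3B-KD and 1, HNF4A, was lower. Their summed level was 2565 to 2612 FPKM in Hep3B-Con and 4088 to 4105 FPKM in Hep3B-KD. Most of that sum came from ALB, with means of 2042 FPKM in Hep3B-Con and 3315 FPKM in Hep3B-KD. Among all genes tested, 36.3% were called higher and 24.0% lower. Of 4 fibroblast markers, 2 passed the filter and both were lower, with the list summing to 3.45 to 3.74 FPKM in Hep3B-Con and 2.43 to 2.50 FPKM in Hep3B-KD. COL3A1 had at most 2 reads in any library. Of 4 leukocyte markers, 2 were in the table, and their sum of 2.08 to 3.17 FPKM in Hep3B-Con and 3.02 to 3.995 FPKM in Hep3B-KD came almost wholly from LYZ. The endothelial genes VWF, CDH5 and TEK were at or below 3 reads in every library, and the 4 endothelial markers summed to 0.194 to 0.217 FPKM in Hep3B-Con and 0.268 to 0.385 FPKM in Hep3B-KD. The part of these marker differences in the results for the target genes was not tested.

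The target genes did not move in one direction. Of the 10 genes, 9 passed the filter on low values. GLUL, LGR5, TBX3 and RNF43 were higher in Hep3B-KD, DKK1, TCF7 and NKD1 were lower, and AXIN2 and ZNRF3 did not pass an adjusted p of 0.05. LEF1 lay below the filter. Calls were frequent in this comparison, since 60.3% of all genes tested passed, 36.3% as higher and 24.0% as lower, so 4 higher and 3 lower of 9 is close to the background. With a fold of at least 2 added, GLUL was called higher and DKK1 lower, where 8.83% of all genes tested were called, 5.88% as higher and 2.95% as lower. Both lay near that fold under some alternatives, as the log2 fold change of GLUL was 0.91 with libraries centred on the median log ratio and 0.99 without Hep3B-Con replicate 1, and that of DKK1 was -0.99 under quantile normalization, each short of the fold. The median log2 fold change was 0.08 over the 9 genes and 0.11 over all genes tested. When each library was centred on its median log ratio, or quantile normalized, the median of all genes was 0.01, and the 7 target genes called by adjusted p kept their direction and that call.

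**Figure D1:**
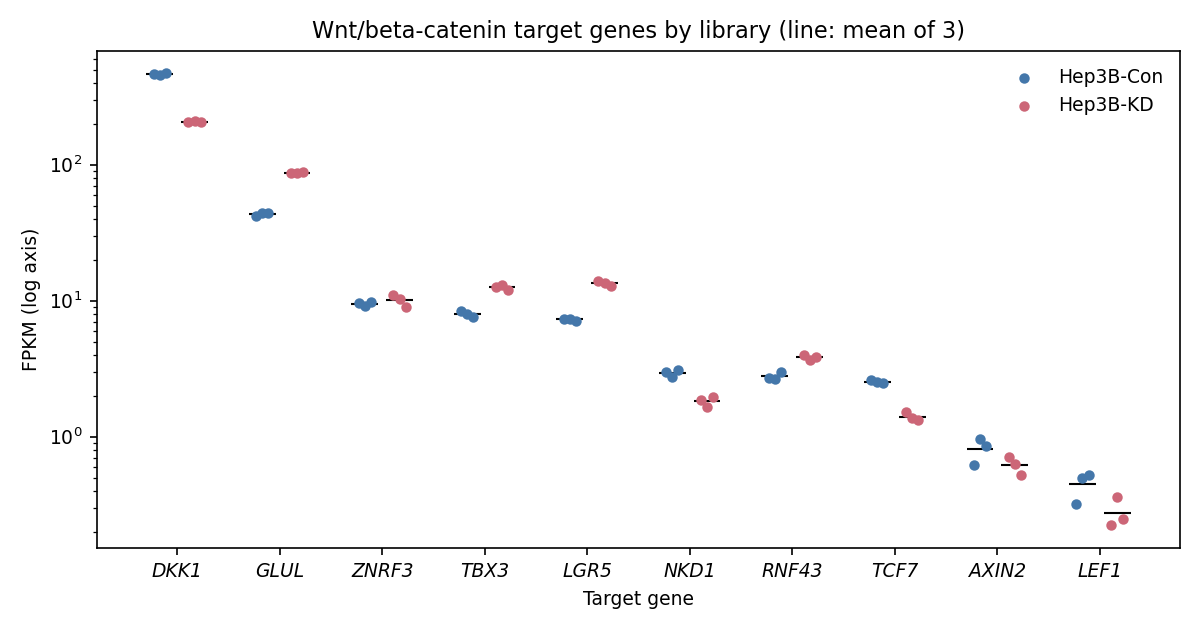
FPKM of the 10 target genes (log axis) in each library, blue for Hep3B-Con and red for Hep3B-KD, with a line at the mean of 3. The points of the 2 groups lie apart for DKK1, GLUL, TBX3, LGR5, NKD1, RNF43 and TCF7 and overlap for ZNRF3, AXIN2 and LEF1.

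The levels covered a wide range. In Hep3B-Con the order by mean FPKM was DKK1, GLUL, ZNRF3, TBX3, LGR5, NKD1, RNF43, TCF7, AXIN2 and LEF1, and only the neighbours NKD1 and RNF43 overlapped between libraries. In Hep3B-KD the order was DKK1, GLUL, LGR5, TBX3, ZNRF3, RNF43, NKD1, TCF7, AXIN2 and LEF1, and only LGR5 and TBX3 overlapped. DKK1 stayed at the head of the order in both groups, with rank 52 among the 14147 genes tested by mean FPKM, while AXIN2, which is often used as a readout of the pathway, ranked 12993. Groups that do not overlap are common here, at 67.2% of all genes tested, with 40.8% higher and 26.4% lower in every Hep3B-KD library than in every Hep3B-Con library. Of the 9 target genes tested, 4 were separated as higher and 3 as lower.

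DKK1 (ENSG00000107984, chr10:52314296-52318042, plus strand, GRCh38) encodes a secreted inhibitor that binds the LRP coreceptors. It had 463, 459 and 470.0 FPKM in Hep3B-Con and 206, 209 and 207 FPKM in Hep3B-KD, from 17259 to 17932 reads and from 7203 to 7590 reads per library. Every Hep3B-KD value was below every Hep3B-Con value by far more than the spread within a group. The group means were 464 ± 5.77 FPKM in Hep3B-Con and 207 ± 1.63 FPKM in Hep3B-KD (SD, n = 3 each), and DKK1 fell by 1.16 on the log2 scale (SE 0.0151, adjusted p = 5.13e-08, limma). DKK1 supplied nearly all FPKM of the 4 DKK genes, with 99.8% in Hep3B-Con and 99.3% in Hep3B-KD. DKK3, a divergent family member, was higher in Hep3B-KD, with 0.760 ± 0.0929 FPKM in Hep3B-Con and 1.39 ± 0.265 FPKM in Hep3B-KD (SD, n = 3 each), but its level stayed far below that of DKK1. The DKK3 call was lost under quantile normalization (log2 fold change 0.50, adjusted p = 0.0558, limma). DKK2 and DKK4 had at most 3 reads in any library.

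The upstream stretch of DKK1 is shown because DKK1 had the largest change among the target genes and because it holds a pair of TCF/LEF motif matches. The RefSeq promoter table (GRCh38.p14) had entries for 5 of the target genes, DKK1, GLUL, LEF1, RNF43 and TCF7, and none was used for AXIN2, LGR5, NKD1, ZNRF3 and TBX3. The 250 bases before each start were searched on both strands for 4 forms of the TCF/LEF consensus, which do not contain each other. The first form searched was CTTTGAA and the second form was CTTTGAT, the other forms being CTTTGTA and, last of them, CTTTGTT. The DKK1 stretch, chr10:52314031-52314280 on the plus strand, reads as follows with the matches in capitals.
DKK1: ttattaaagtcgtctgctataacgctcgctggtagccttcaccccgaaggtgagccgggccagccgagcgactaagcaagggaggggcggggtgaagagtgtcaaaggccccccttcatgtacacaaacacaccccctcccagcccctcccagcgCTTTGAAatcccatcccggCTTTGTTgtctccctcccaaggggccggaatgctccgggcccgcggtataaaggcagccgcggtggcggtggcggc
The matches begin 95 and 76 bases before the start, at chr10:52314186-52314192 and chr10:52314205-52314211. In TCF7, which has 2 entries, the stretch chr5:134123368-134123617 holds 1 match on the opposite strand, 50 bases before the start, shown with its surroundings.
TCF7: ggccccactggAACAAAGgaggagagaggc
No match was found before the other TCF7 start, before either start of GLUL or RNF43, or before that of LEF1. Of all 35116 promoter stretches of the same length, 4199 (11.96%) hold at least 1 match, so the letters alone are common.

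Among the receptor-level genes, LGR5 (ENSG00000139292, chr12:71439770-71586310, plus strand) had 7.38, 7.38 and 7.08 FPKM in Hep3B-Con and 13.9, 13.5 and 12.9 FPKM in Hep3B-KD. All Hep3B-KD libraries were higher, from 1120 to 1160 reads against 619 to 681 reads. LGR5 rose by a log2 fold change of 0.87 (SE 0.0420, adjusted p = 6.71e-06, limma). LGR4, the other R-spondin receptor expressed in these cells, had 22.9, 23.6 and 23.9 FPKM in Hep3B-Con and 43.4, 42.9 and 40.4 FPKM in Hep3B-KD, with a log2 fold change of 0.84 (SE 0.0352, adjusted p = 3.83e-06, limma). The summed level of LGR4, LGR5 and LGR6 was 30.8 ± 0.431 FPKM in Hep3B-Con and 55.7 ± 2.14 FPKM in Hep3B-KD (SD, n = 3 each). The share of LGR5 in that sum was 23.7% ± 0.781 in Hep3B-Con and 24.1% ± 0.193 in Hep3B-KD (SD, n = 3 each), a difference within the spread between libraries (two-sided exact permutation test, p = 0.6). LGR6 had at most 3 reads in any library.

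ZNRF3 and RNF43 encode membrane ubiquitin ligases that remove Frizzled receptors from the cell surface and are held back by R-spondin bound to LGR receptors. ZNRF3 (ENSG00000183579, chr22:28883592-29057487, plus strand) had 9.61, 9.07 and 9.75 FPKM in Hep3B-Con and 10.98, 10.2 and 9.01 FPKM in Hep3B-KD. Its groups overlapped, since the lowest of the 6 values was a Hep3B-KD library. The log2 fold change was 0.08 (95% interval -0.10 to 0.26, adjusted p = 0.379, limma), and it was -0.02 (adjusted p = 0.818, limma) when libraries were centred on their median log ratio. RNF43 (ENSG00000108375, chr17:58352500-58417595, minus strand) had 2.71, 2.65 and 3.01 FPKM in Hep3B-Con and 3.97, 3.69 and 3.85 FPKM in Hep3B-KD. All Hep3B-KD values were above all Hep3B-Con values, and RNF43 rose by 0.45 on the log2 scale (SE 0.0689, adjusted p = 0.00131, limma). The sum of ZNRF3 and RNF43 was 12.3 ± 0.519 FPKM in Hep3B-Con and 13.9 ± 1.04 FPKM in Hep3B-KD (SD, n = 3 each). RNF43 made up 22.7% ± 0.812 of it in Hep3B-Con and 27.7% ± 1.96 in Hep3B-KD (SD, n = 3 each), with no overlap between the groups. The two-sided exact permutation test gave p = 0.1, which is the smallest p that 3 libraries against 3 allow.

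AXIN2 and NKD1 act in the cytoplasm, AXIN2 as a scaffold of the destruction complex and NKD1 as a binding partner of Dishevelled. AXIN2 (ENSG00000168646, chr17:65528563-65561647, minus strand) had 0.621, 0.958 and 0.851 FPKM in Hep3B-Con and 0.712, 0.631 and 0.519 FPKM in Hep3B-KD, from 45 to 87 reads per library. The groups overlapped, with the lowest Hep3B-Con library below 2 of the 3 Hep3B-KD libraries. The log2 fold change of AXIN2 was -0.33 with a 95% interval from -0.86 to 0.21 (adjusted p = 0.248, limma), so the interval at this depth spans both a fall and a rise. Across the alternatives its adjusted p ran from 0.0467 to 0.515, and it passed under quantile normalization with a log2 fold change of -0.62. AXIN1, the constitutive scaffold, had 5.78, 5.95 and 6.15 FPKM in Hep3B-Con and 3.98, 3.89 and 3.81 FPKM in Hep3B-KD. It fell by 0.60 on the log2 scale (SE 0.0465, adjusted p = 4.94e-05, limma). The share of AXIN2 in the sum of both scaffolds was 11.9% ± 2.10 in Hep3B-Con and 13.7% ± 1.60 in Hep3B-KD (SD, n = 3 each, two-sided exact permutation test, p = 0.4).

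NKD1 (ENSG00000140807, chr16:50548330-50649249, plus strand) had 3.001, 2.75 and 3.08 FPKM in Hep3B-Con and 1.87, 1.65 and 1.95 FPKM in Hep3B-KD, from 832 to 919 reads and from 463 to 563 reads per library. The groups did not overlap, and NKD1 fell by 0.66 on the log2 scale (SE 0.0884, adjusted p = 0.000670, limma). Its relative NKD2 had 2.50 ± 0.149 FPKM in Hep3B-Con and 1.65 ± 0.473 FPKM in Hep3B-KD (SD, n = 3 each), and fell by 0.60 on the log2 scale (SE 0.190, adjusted p = 0.0303, limma). The NKD2 call was lost when any library other than Hep3B-KD replicate 2 was left out, with adjusted p between 0.058 and 0.0867 (limma).

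TCF7 and LEF1 encode DNA-binding partners of beta-catenin and are themselves targets of the pathway. TCF7 (ENSG00000081059, chr5:134114711-134151865, plus strand) had 2.60, 2.52 and 2.50 FPKM in Hep3B-Con and 1.52, 1.37 and 1.32 FPKM in Hep3B-KD, from 418 to 460 reads and from 221 to 242 reads per library. All Hep3B-KD libraries were lower, and TCF7 fell by 0.81 on the log2 scale (SE 0.0832, adjusted p = 0.000184, limma). LEF1 (ENSG00000138795, chr4:108047545-108168956, minus strand) had 0.318, 0.494 and 0.527 FPKM in Hep3B-Con and 0.223, 0.360 and 0.247 FPKM in Hep3B-KD. With only 19 to 47 reads per library and overlapping groups, no difference of LEF1 was detectable at this depth (log2 fold change -0.53, adjusted p = 0.260 from limma without a filter). The remaining family members moved the other way. TCF7L1, which often acts as a repressor, had 9.86, 7.56 and 8.18 FPKM in Hep3B-Con and 12.6, 12.4 and 14.5 FPKM in Hep3B-KD, a rise of 0.62 on the log2 scale (SE 0.107, adjusted p = 0.00223, limma). TCF7L2, the main factor of many epithelia, had 4.06, 4.65 and 4.45 FPKM in Hep3B-Con and 5.35, 5.64 and 5.48 FPKM in Hep3B-KD, a rise of 0.32 on the log2 scale (SE 0.0615, adjusted p = 0.00376, limma), which missed the threshold under quantile normalization (adjusted p = 0.0534, limma).

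The make-up of the TCF/LEF family therefore differed between the groups. The 4 factors summed to 15.9 ± 0.839 FPKM in Hep3B-Con and 20.3 ± 1.02 FPKM in Hep3B-KD (SD, n = 3 each). TCF7 supplied 15.4%, 16.5% and 15.9% of the sum in Hep3B-Con and 7.69%, 6.95% and 6.15% in Hep3B-KD. TCF7L1 supplied 53.5% ± 4.57 and 64.6% ± 2.34, respectively (SD, n = 3 each). LEF1 supplied 2.83% ± 0.818 and 1.37% ± 0.393, and its groups were separated only narrowly. The shares of TCF7, TCF7L1 and LEF1 each gave p = 0.1 in the two-sided exact permutation test, the smallest possible here, whereas the TCF7L2 share was 27.7% ± 3.29 in Hep3B-Con and 27.1% ± 1.54 in Hep3B-KD (SD, n = 3 each, exact permutation p = 0.9). These are 4 of 15 shares computed in 5 gene families, and none could pass after adjustment.

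**Figure D2:**
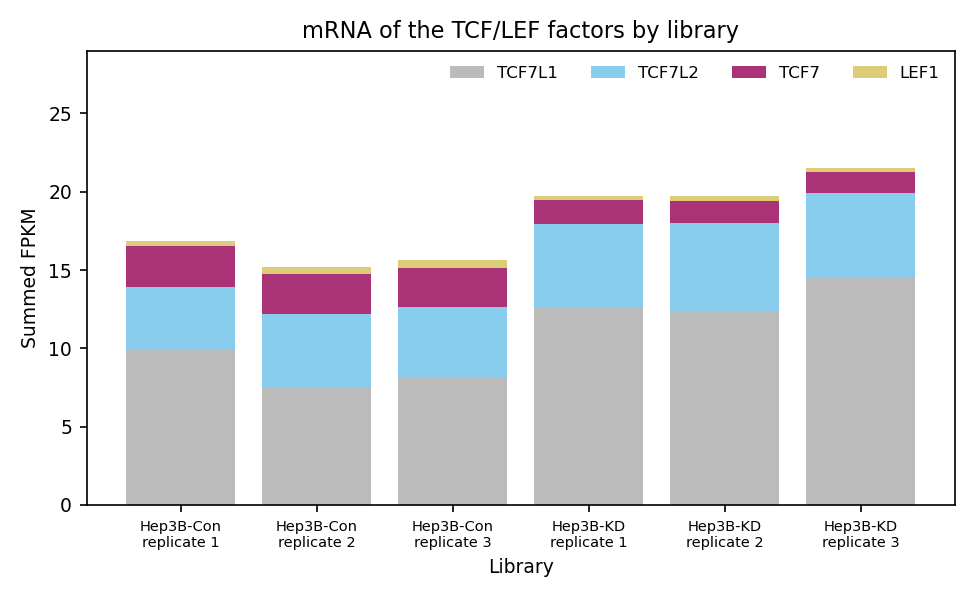
Summed FPKM of TCF7L1, TCF7L2, TCF7 and LEF1 in each of the 6 libraries, stacked by gene. The Hep3B-KD bars are taller, and their TCF7 segment is thinner (6.15% to 7.69% of the bar) than in Hep3B-Con (15.4% to 16.5%).

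GLUL and TBX3 are targets tied to hepatocytes. GLUL (ENSG00000135821, chr1:182381704-182392206, minus strand), which makes glutamine from glutamate and ammonia, had 42.0, 43.8 and 44.1 FPKM in Hep3B-Con and 86.9, 87.2 and 88.02 FPKM in Hep3B-KD, from 6632 to 6884 reads and from 12450 to 13191 reads per library. The groups were widely separated. The group means were 43.3 ± 1.17 FPKM in Hep3B-Con and 87.4 ± 0.580 FPKM in Hep3B-KD (SD, n = 3 each), and GLUL rose by 1.01 on the log2 scale (SE 0.0244, adjusted p = 4.51e-07, limma). TBX3 (ENSG00000135111, chr12:114670254-114684164, minus strand), a T-box transcription factor, had 8.38, 7.94 and 7.59 FPKM in Hep3B-Con and 12.7, 13.1 and 12.0025 FPKM in Hep3B-KD. All Hep3B-KD libraries were higher, and TBX3 rose by 0.65 on the log2 scale (SE 0.0518, adjusted p = 5.45e-05, limma). GLUL rose, as did 7 of the 8 hepatocyte markers. The median log2 fold change of all 8 markers was 0.74. ALB rose by 0.70 and APOB by 1.20 on the log2 scale, whereas HNF4A had a log2 fold change of -0.35.

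**Figure D3:**
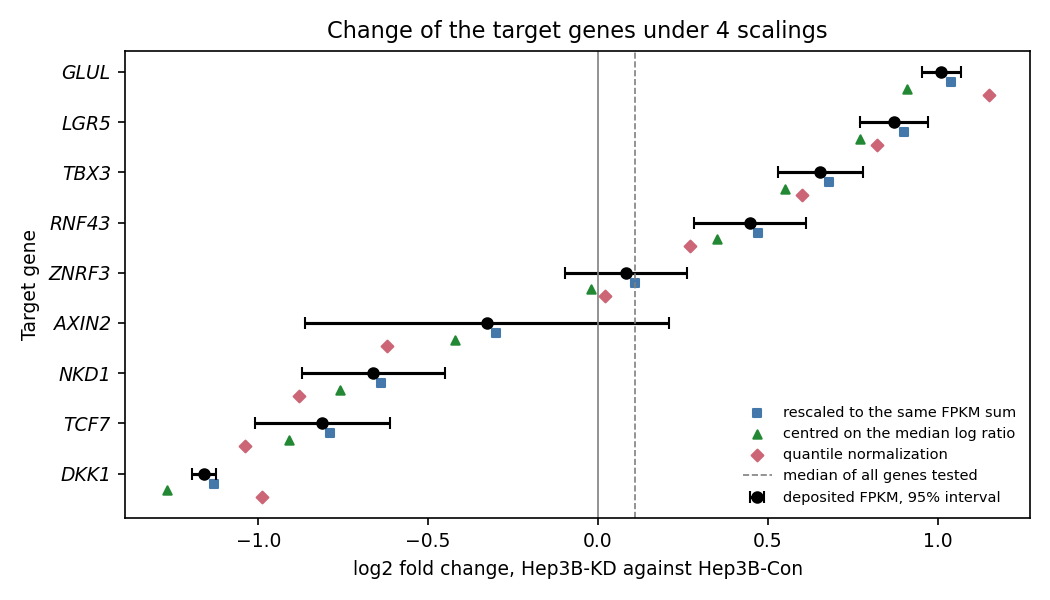
Log2 fold change of the 9 target genes tested, Hep3B-KD against Hep3B-Con, as deposited (black, with 95% interval) and under 3 other scalings. GLUL, LGR5, TBX3 and RNF43 lie above 0 and NKD1, TCF7 and DKK1 below 0 under all 4 scalings, while ZNRF3 falls on either side of 0, and the dashed line marks the median of all genes tested (0.11).

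Other genes of liver zonation were examined beside GLUL. Of 8 other pericentral hepatocyte genes, 3 were tested. The ammonium transporter gene RHBG was higher by 0.47 on the log2 scale (adjusted p = 0.0204, limma), a call that was lost without Hep3B-Con replicate 3 (adjusted p = 0.0506), Hep3B-KD replicate 2 (0.0520) or Hep3B-KD replicate 3 (0.0701, all limma). Under quantile normalization the RHBG change was 0.19 (adjusted p = 0.275, limma). OAT, the ornithine aminotransferase gene, had 7.20 ± 0.276 FPKM in Hep3B-Con and 3.63 ± 0.584 FPKM in Hep3B-KD (SD, n = 3 each), and fell by 0.98 on the log2 scale (SE 0.110, adjusted p = 0.000282, limma). LECT2, named after its values were seen, had 1.81 FPKM in Hep3B-Con and 2.45 FPKM in Hep3B-KD and did not pass (adjusted p = 0.1003, limma). Of 8 periportal genes, 7 were in the table and 2 were tested, and both were lower, as were 24.0% of all genes tested. The periportal genes below the filter did not share that direction. ARG1 was higher in every Hep3B-KD library, as were CPS1 and G6PC by a narrow margin, while GLS2 and SDS overlapped. Among the pericentral genes below the filter, CYP2E1, CYP1A2 and CYP7A1 were higher in every Hep3B-KD library, CYP7A1 with at most 2 reads in any library. SLC1A2 and SLC13A3 overlapped. All of these genes below the filter had few reads and were named after their values were seen. HAL, which degrades histidine, had 5.57, 6.19 and 5.69 FPKM in Hep3B-Con and 1.005, 1.32 and 0.972 FPKM in Hep3B-KD, a fall of 2.31 on the log2 scale (SE 0.120, adjusted p = 8.95e-06, limma). ASS1 of the urea cycle fell from 47.6 ± 1.03 to 32.3 ± 0.915 FPKM (SD, n = 3 each).

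Of 12 other targets of beta-catenin, 9 were tested. Of these, 1 was higher, 5 were lower and 3 did not pass, with a median log2 fold change of -0.10, beside 36.3% of all genes tested called higher and 24.0% lower and a median of 0.11. MYC, the proto-oncogene, had 96.2, 94.3 and 95.8 FPKM in Hep3B-Con and 51.4, 53.4 and 54.3 FPKM in Hep3B-KD, a fall of 0.85 on the log2 scale (SE 0.0248, adjusted p = 9.55e-07, limma). The secreted factor gene BMP4 fell from 12.3 ± 0.849 to 6.89 ± 0.552 FPKM, and SOX9, a factor of biliary and progenitor cells, rose from 43.7 ± 2.95 to 53.5 ± 3.04 FPKM (SD, n = 3 each). The other genes called lower were CCND1, VEGFA and BIRC5, with log2 fold changes of -0.40, -0.10 and -0.18, and VEGFA passed only narrowly (adjusted p = 0.0480, limma). SP5, TNFRSF19 and JUN did not pass, with log2 fold changes of 0.58, 0.21 and -0.02. These 6 genes were named after their values were seen.

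The rest of the pathway was examined by role. Over all 113 listed genes other than the 10 targets, 100 were in the table and 59 were tested, of which 27 were higher, 19 lower and 13 did not pass (median log2 fold change 0.21, beside 0.11 for all genes tested). Among all genes tested, 36.3% were higher and 24.0% lower. Few ligands were expressed, as 3 of 25 genes for Wnt ligands, R-spondins and Wnt secretion passed the filter. WNT3, the single Wnt ligand tested, had 4.63, 4.82 and 4.45 FPKM in Hep3B-Con and 2.98, 2.92 and 2.74 FPKM in Hep3B-KD, a fall of 0.67 on the log2 scale (SE 0.0593, adjusted p = 9.20e-05, limma). WLS, which carries Wnt proteins to the cell surface, rose by 0.68 on the log2 scale. PORCN, the acyltransferase that lipidates Wnt proteins, was higher by 0.85 (adjusted p = 0.0280, limma). The PORCN call was lost without Hep3B-Con replicate 1 or 3 or Hep3B-KD replicate 2 or 3 (adjusted p 0.0781 to 0.0912, limma).

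Of 12 receptor genes tested, 7 were higher in Hep3B-KD, 2 lower and 3 did not pass, with a median log2 fold change of 0.51, where 36.3% of all genes tested were higher and 24.0% lower. FZD4 had 2.12, 2.29 and 2.34 FPKM in Hep3B-Con and 5.52, 6.05 and 6.11 FPKM in Hep3B-KD, a rise of 1.35 on the log2 scale (SE 0.0669, adjusted p = 7.46e-06, limma), and FZD8 rose by 0.96. FZD5, the Frizzled gene with the highest level, fell from 89.1 ± 2.94 to 75.5 ± 1.89 FPKM (SD, n = 3 each), and RYK, an atypical Wnt receptor, fell by 0.31 on the log2 scale. Of 3 antagonist genes tested besides DKK1, DKK3 was higher as given above, NOTUM, which encodes a Wnt-inactivating deacylase and is itself a known target in liver tumours, was lower, and 1 did not pass. NOTUM had 2.11, 2.13 and 2.31 FPKM in Hep3B-Con and 0.752, 0.969 and 0.978 FPKM in Hep3B-KD, a fall of 1.20 on the log2 scale (SE 0.127, adjusted p = 0.000217, limma).

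Of 15 genes for beta-catenin and the destruction complex, all 15 were tested, 8 were higher, 5 lower and 2 did not pass (median log2 fold change 0.22). All genes tested had a median of 0.11, with 36.3% higher and 24.0% lower. CTNNB1, the beta-catenin gene, had 34.3, 33.5 and 34.2 FPKM in Hep3B-Con and 32.8, 31.5 and 31.2 FPKM in Hep3B-KD. The difference was small, with a log2 fold change of -0.09 (SE 0.0272, adjusted p = 0.0226, limma), and the call was lost without Hep3B-Con replicate 1 (adjusted p = 0.0642), Hep3B-Con replicate 3 (0.0667), Hep3B-KD replicate 2 (0.0656) or Hep3B-KD replicate 3 (0.0711, all limma). Under quantile normalization the CTNNB1 change was -0.01 (adjusted p = 0.825, limma). APC rose by 0.89 and TNKS, a tankyrase that marks AXIN for degradation, by 0.73 on the log2 scale. GSK3B, the kinase that marks beta-catenin, rose from 15.3 ± 0.277 to 18.8 ± 0.504 FPKM (SD, n = 3 each). The other GSK3 kinase gene, GSK3A, named after its values were seen, fell by 0.22 on the log2 scale (adjusted p = 0.0189, limma). Of 12 nuclear partners tested, 7 were higher, 2 lower and 3 did not pass (median log2 fold change 0.25), beside the same shares of all genes tested. The corepressor gene TLE4 rose by 1.23 and TLE2 by 0.90 on the log2 scale, while CTNNBIP1, whose product keeps beta-catenin off TCF factors, fell by 0.79. SMARCA4, a chromatin remodelling ATPase, was lower by 0.09 (adjusted p = 0.0161, limma). Its sign turned under quantile normalization (0.01), and the call was lost without Hep3B-KD replicate 1 (adjusted p = 0.0513, limma).

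**Figure D4:**
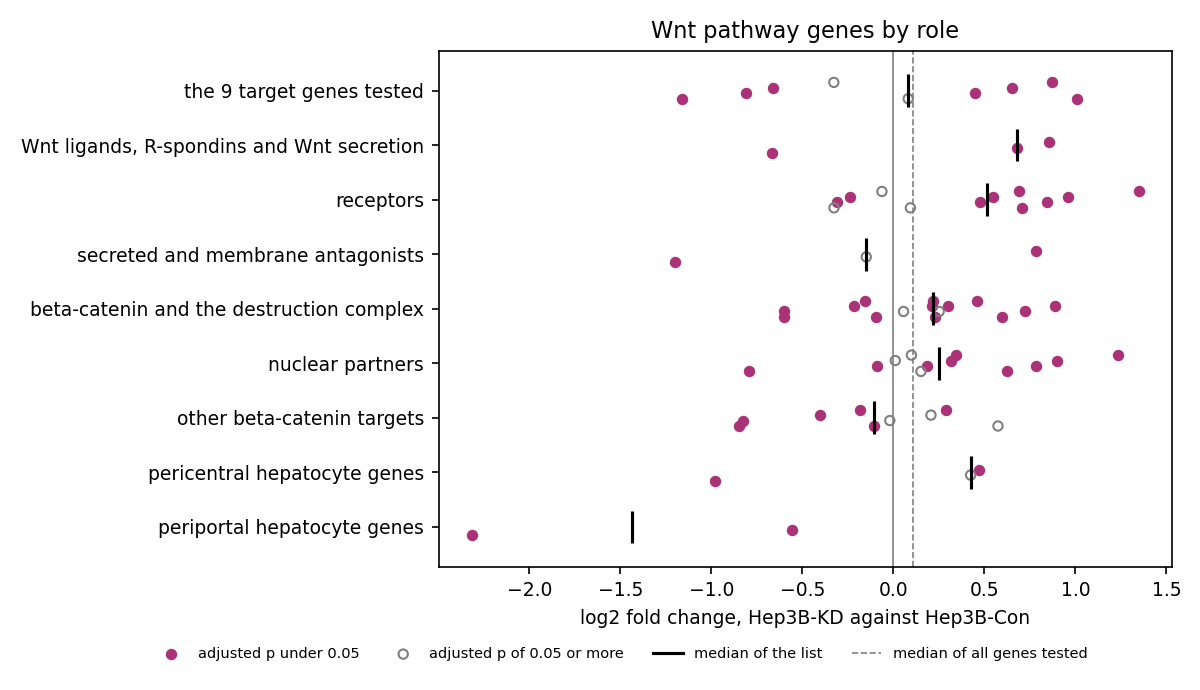
Log2 fold change of each tested gene, Hep3B-KD against Hep3B-Con, by role in the pathway. Filled points have an adjusted p under 0.05 and the vertical bar is the median of a list. Receptors centre on 0.51 and the 2 periportal genes tested lie below 0, whereas the 9 target genes spread from -1.16 to 1.01 around a median of 0.08.

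The hairpin was compared with the 3′ untranslated regions of the target genes, because a guide strand can also act on transcripts that match its seed (bases 2 to 8), as a microRNA does. The guide was taken as the reverse complement of the listed target. Where the guide begins in the cells is not given, and another start would give another seed. The target in DAGLA and the assumed guide, seed in capitals, are given first. The matches in the longest 3′ untranslated regions of NKD1 and ZNRF3 (GENCODE release 29) follow, with the match in capitals.
DAGLA target: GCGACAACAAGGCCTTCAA
Guide: tTGAAGGCcttgttgtcgc
NKD1: tgctgtctctgGCCTTCAgtaccatattt
ZNRF3: tgatctgggacGCCTTCAtttctcgggcc
The match begins at base 9161 of 15468 in NKD1 and at base 2040 of 3865 in ZNRF3, and the other 8 target genes have 0 matches. Among 11189 tested genes with such a region of at least 50 bases, 1628 (14.6%) hold a match. That share was not matched to the length of the region, which is 15468 bases in NKD1. Of the target genes, DKK1, TCF7 and NKD1 were lower in Hep3B-KD, and ZNRF3 did not pass. The part of the match in the NKD1 change was not tested.

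Several target genes share exon bases with a neighbour, and whether reads were counted by strand is not given in the sources used here. TCF7 shares 210 of its 10063 exon bases with SKP1 on the opposite strand, whose level also went from 4.22 to 2.70 FPKM. LGR5 shares 208 bases with an antisense gene at 0.260 FPKM in Hep3B-Con and 0.471 FPKM in Hep3B-KD, and DKK1 shares 212 bases with PRKG1-AS1, at 0.469 and 0.329 FPKM. RNF43 shares 4326 of its 7505 bases with AC004687.2 on the same strand and 1521 bases with TSPOAP1-AS1, and both lay at or below 0.0750 FPKM in either group. It also shares 143 bases with SUPT4H1 on the same strand, which had 0.00963 FPKM in Hep3B-Con and 0 FPKM in Hep3B-KD. Whether these low levels come from how reads fitting RNF43 and a neighbour were counted was not tested. If such reads were left out, the level of RNF43 and its share of the sum with ZNRF3 would be too low. GLUL has processed pseudogene copies, and how reads fitting both were counted is not given in the sources used here.

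The genes most like AXIN2 and DKK1 over the 6 libraries were sought by the root mean square difference of log2(FPKM + 0.1) after centring each gene on its Hep3B-Con mean. For DKK1 they included RPN1 (difference 0.0143) and ECHS1 (0.0215). Their log2 fold changes of -1.16 and -1.17 lie near that of DKK1 by construction, since the measure picks genes with a like difference between the groups. For AXIN2 they were KTN1-AS1 (0.0662), VDAC1P1 (0.0841) and KIAA1211L (0.0841). All values of one library share its depth, and the likeness is a description over 6 libraries only.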

How the data were processed

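RNA-seq libraries were made from 3 Hep3B-Con and 3 Hep3B-KD samples, called biological replicates in the series design. Without further detail on separate cultures, p-values measure the spread between these samples. The authors deposited FPKM values for 29908 genes in 1 table with 0 other value columns. Per the labels, the submitters' processing notes name Bowtie2 2.0.6, TopHat2 2.0.12 and build GRCh37. All identifiers were found in GENCODE release 29 (GRCh38), and with its exon lengths every FPKM value gave a whole number of reads to within 0.01, so coordinates are of GRCh38. Statements on genes with 3 or fewer reads cover counting error only.

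Values were tested as log2(FPKM + 0.1) with limma 3.58.1 (lmFit, eBayes with trend) in R 4.3.3, over the 14147 genes whose mean reached 0.5 FPKM, 1 row per symbol (382 rows had repeated symbols), with Benjamini-Hochberg adjustment. The fit was also run on simulated data with 200 changed genes, far fewer than were called here, so that run does not gauge the calls in these data. Shares were compared by two-sided exact permutation tests computed with numpy. The target genes and all lists were chosen with earlier results of these data known. Named pathway genes were, per list, the 2 with the largest change in each direction, besides the other TCF/LEF, R-spondin receptor and DKK genes and CTNNB1, AXIN1 and GSK3B. Others are said to be named after their values were seen. Of the 3 genes most like DKK1, 1 is not reported here. No batch is given in the labels. Python 3.11.15, pandas 2.3.3, numpy 2.4.6 and matplotlib 3.10.9 were used. Alternatives were other filters, pseudocounts, scalings, variance models, a replicate block, voom on the recovered reads, repeated symbols kept, and each library left out.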

Additional observations from a re-analysis of the deposited data

How the results depend on the processing

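The 4 higher and 3 lower target genes kept their direction and their call by adjusted p under every alternative run, including each library left out (4 higher, 3 lower in each case), and the lower count reached 4 under quantile normalization, when AXIN2 passed (-0.62, adjusted p = 0.0467, limma). ZNRF3 turned to -0.02 with libraries centred on the median log ratio, and SMARCA4 to 0.01 under quantile normalization. The causes were not tested. The fold of 2 was missed by GLUL with median centring (0.91) and without Hep3B-Con replicate 1 (0.99), and by DKK1 under quantile normalization (-0.99), while GLUL lay close to it with a pseudocount of 1. Genes past a fold of 2 numbered 1249 (832 higher, 417 lower), 495 with a pseudocount of 1 (249 higher, 246 lower), 628 higher and 534 lower with median centring, and 474 higher and 584 lower with quantile normalization. Leaving out a library gave 1200 to 1255 such genes, 22 to 27 pathway genes higher and 15 to 17 lower. A minimum mean of 1 FPKM left no AXIN2 value. Replicate numbers did not pair the samples: deviations of same-numbered samples correlated at -0.065 to -0.001, and samples did not correlate best with their own number. A replicate block gave 1238 genes (827 higher, 411 lower) and the same 7 target gene calls, and with it SMARCA4 (adjusted p = 0.0546) and RHBG (0.0576, both limma) lost their call. Calls of CTNNB1, PORCN, NKD2, DKK3, TCF7L2, SMARCA4 and RHBG were lost under other alternatives. At 45 to 87 reads per library for AXIN2 and 19 to 47 for LEF1, depth limits both genes.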

Other observations

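Some pathway genes below the filter on low values had few reads that were unevenly spread between the groups, and were picked after their values were seen. MMP7, a matrix protease gene and beta-catenin target, had 16, 23 and 21 reads in Hep3B-Con and 1, 2 and 1 reads in Hep3B-KD. WIF1, a secreted Wnt inhibitor, had 14, 18 and 27 reads in Hep3B-Con and 7, 3 and 8 reads in Hep3B-KD. The pericentral cytochrome gene CYP2E1 had 0, 1 and 0 reads in Hep3B-Con and 8, 9 and 4 reads in Hep3B-KD, and the periportal arginase gene ARG1 had 7, 1 and 10 reads in Hep3B-Con and 19, 17 and 22 reads in Hep3B-KD. The groups did not overlap in any of these 4 genes, which follows from how they were picked. Groups also lay apart in other pathway genes below the filter, and the share of such genes was not computed. No fold change is given for them, since they were not among the genes tested.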
